A study of Rattus norvegicus with 35 samples.

Results

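RNA of the olfactory epithelium of 15 newborn pups from litters L2, L3 and L4 was compared with that of 4 old rats. These 19 rats were chosen by the litter and age in their labels, out of 27 rats in the series, and gave 23 of its 35 arrays. All were Brown Norway rats, an inbred strain, and the labels name no genetic change and no treatment in any group. The pups were 3 to 5 days old, 5 from each litter, and their sex was not known. Pups of a litter share a mother, so that the spread between the 3 litters rests on 3 families. The old rats were males of 22 months housed with the laboratory's animals since 3 weeks of age. Each pup gave 1 array, with RNA from 1 side of the nose, whereas each old rat gave an array for sample A and another for sample B, the left and right epithelium, which were averaged. The arrays of L2, L3 and L4 were scanned on 2 days on which no old rat was scanned. The pups were bought with their mothers from Charles River, and the supplier of the old rats is not given. In this comparison age can therefore not be told apart from scan day, sex, side, housing or, where it differed, supplier. The 4 pups of L1, of the same age, were scanned on the day of the old rats, and their change against the same old rats is given beside some results.

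A level below is the log2 of a probe's background-subtracted intensity over the median of its array. Values under 0.01 of that median were set to 0.01, a level of -6.64, and have no order among themselves. A change is the mean level of the pups, with each litter counted equally, minus that of the old rats, with the standard error (SE) of the fit. A gene was called higher or lower when the p-value of limma, after Benjamini-Hochberg adjustment over 28007 probes, was under 0.01 and the change was at least 2-fold. The median intensity was 42.9 to 87.7 on arrays of pups and 37.1 to 55.3 on those of old rats. Between 24484 and 27500 probes were above background on an array of a pup, and between 25275 and 27426 on an array of an old rat. Precision is limited by the number of arrays, and the p-values measure the spread between these rats, in which pups of a litter count as separate animals.

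The olfactory epithelium is a nervous tissue that renews its neurons throughout life. Stem and progenitor cells near its base divide and give rise to immature neurons, which extend an axon to the olfactory bulb and mature into olfactory sensory neurons (OSNs). A mature OSN expresses a single olfactory receptor (OR) gene and carries the odour signal through a G protein, an adenylyl cyclase and a channel gated by cyclic nucleotides. Supporting cells span the sheet and are rich in enzymes that modify foreign compounds, and glands below it secrete mucus with odorant-binding proteins. In the days after birth the nose grows quickly, and its turbinates are still turning from cartilage into bone.

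The markers of the labelled tissue were measured in every rat. Omp, the olfactory marker protein of mature OSNs, and Gnal, the G protein subunit of their odour signal, were above background on all 23 arrays. Gapdh, an enzyme of glycolysis used as a reference, had a change of 0.03 (SE 0.08, adjusted p = 0.778), and Hprt1 one of 0.21 (SE 0.08, adjusted p = 0.0319). Suclg1, an enzyme of the citric acid cycle, had one of 0.39 (SE 0.09, adjusted p = 0.000729), under 2-fold. Of 14 reference genes 1 was called (7.14%, against 13.4% of all probes). This was Gusb, which was 3.15-fold higher in L2 to L4 and had a change of 0.31 in L1. The mean level of the 14 was 7.17 to 7.39 in L2 to L4, 6.98 to 7.16 in old rats and 6.93 to 7.09 in L1. Hprt1 lay between 6.85 and 7.03 in L1 and between 7.21 and 7.49 in old rats. For Suclg1 these were 8.41 to 8.57 and 8.60 to 8.73. Genes of other tissues were measured too, and some of them moved with age. The mean level of 24 genes of skeletal muscle lay between 0.95 and 4.07 in pups and between -1.44 and -1.0 in old rats. That of 20 genes of bone lay between 3.74 and 4.91 in pups and between 1.14 and 1.80 in old rats. Their part in the other results was not tested. In bulk RNA, fewer cells of a type and less RNA per cell cannot be told apart.

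A pair of pups stood apart from their litters. Rat 24 of L2 had the highest mean level in its litter of the genes of the interferon response (4.46, against 3.18 to 3.65 in the other L2 pups) and of macrophages (3.83, against 2.94 to 3.29). Rat 30 of L3 had a mean level of basal cell genes of 6.07, against 4.23 to 4.68 in the other L3 pups, and the lowest mean level of OR genes in its litter (-1.41). Without rat 24 the counts of probes called below stayed within 1.5 times of the values given, except for the count of probes that vary by litter, which is given both ways.

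Of the 28007 probes tested, 3741 were called higher in pups (13.4%) and 3061 lower (10.9%). With normexp background correction (offset 50) and quantile normalization together, 1525 were called higher and 1239 lower. At 5-fold or more the main counts were 1073 higher (3.83%) and 533 lower (1.9%). The median change over all tested probes was 0.0045. Every pup was above every old rat for 6234 probes (22.3%) and below every old rat for 5412 probes (19.3%). Each litter was also set against the old rats on its own. L2 had 3939 probes higher (14.1%) and 3354 lower (12%), L3 had 3627 higher (13%) and 2767 lower (9.88%), and L4 had 3602 higher (12.9%) and 2871 lower (10.3%). These comparisons share the 4 old rats, so that a count common to them is a description. In all 3, 2872 probes were called higher (10.3%) and 2101 lower (7.5%), and 0 probes were called higher in a litter and lower in another. The changes in the 3 litters lay within 0.5 of each other, here called a similar size, for 1827 of the probes higher in every litter (6.52% of those tested) and 1405 of the probes lower (5.02%). In contrast, 337 probes (1.2%) varied by litter. For these the F test between L2, L3 and L4 had an adjusted p under 0.01 and the litter means spanned at least 2-fold. The old rats enter this test only through the spread, which is taken over L2, L3, L4 and the old rats together.

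L1 had been scanned on the day of the old rats. Against the mean of L2, L3 and L4 it had 240 probes higher (0.857%) and 1190 lower (4.25%), with a median change of -0.10 over all tested probes. The pups of L1 and those of the other litters differ in litter and in scan day, which cannot be told apart.

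**Figure D1:**
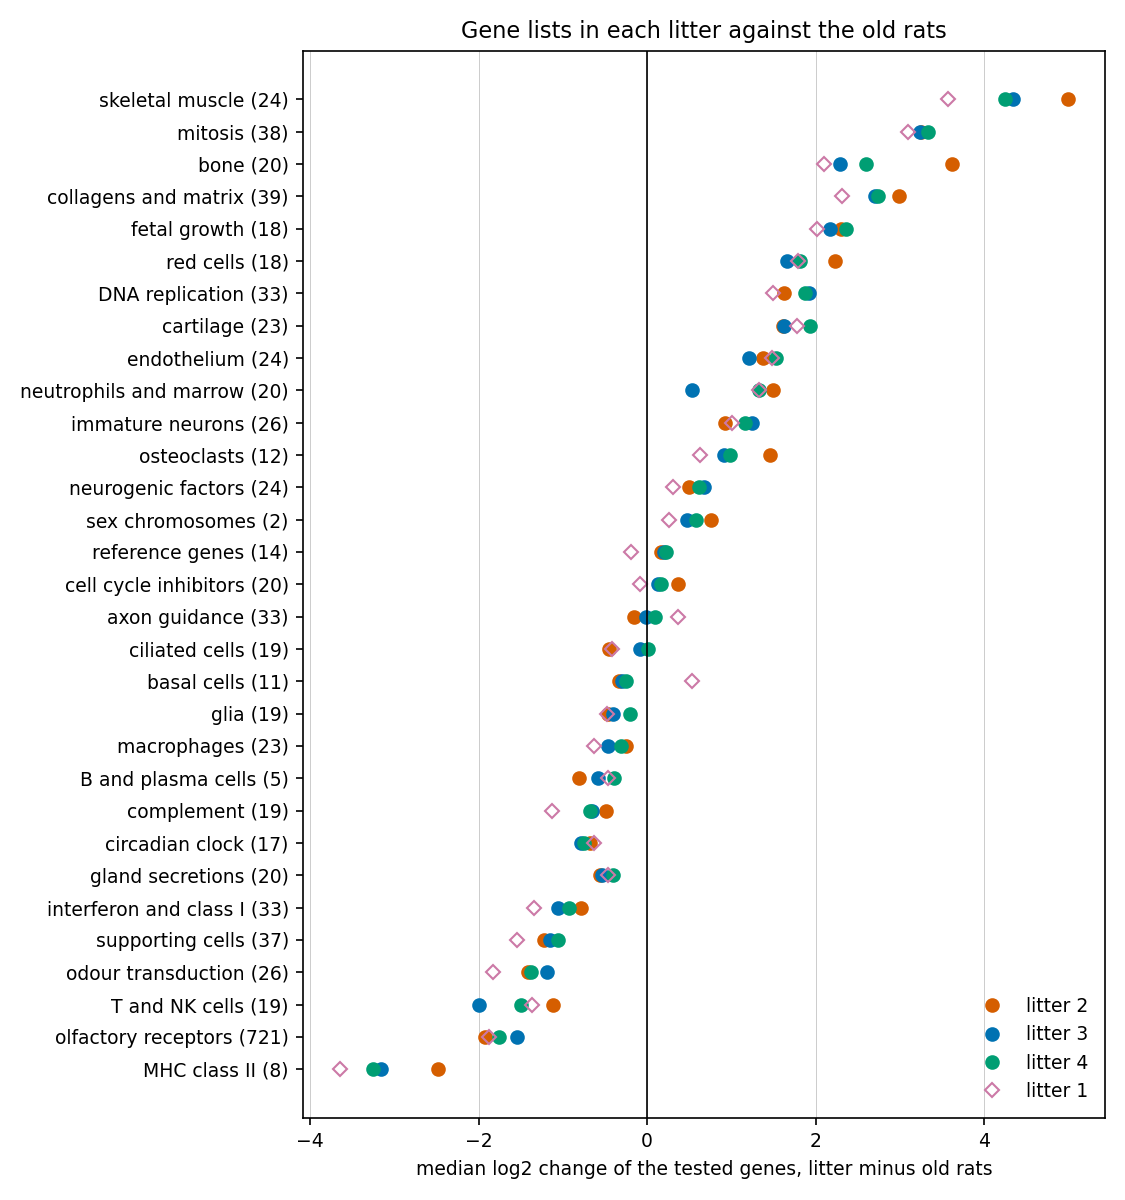
Median log2 change of the tested genes of each list in L2, L3 and L4 against the 4 old rats (filled points) and in L1 against the same rats (open diamonds), with the number of genes tested in brackets. The median of mitosis was 3.25, 3.24 and 3.33 in L2, L3 and L4, whereas that of bone was 3.62 in L2, 2.29 in L3 and 2.59 in L4. Medians count genes at background in a group by their fitted change, and that of skeletal muscle over all pups is 2.61 with those genes at their bound.

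Genes of mitosis rose in pups with nearly the same size in each litter. Of 38 genes of the spindle, the kinetochore and division, 35 were called higher (92.1%, against 13.4% of all probes) and 0 lower. Changes of similar size were found for 33 of them (against 6.52%). The list's median change was 3.25, and that of its 35 genes above background in L2, L3, L4 and old rats was 3.22, with 32 of the 35 called. Kif2c, Aurkb and Ndc80 were the 3 not called, with changes of -0.23, 0.58 and 0.65. The mean level of the list lay between 4.30 and 4.94 in the 15 pups and was 1.75, 1.65, 1.71 and 1.90 in the old rats. No pup came near an old rat. In L1 the median change was 3.09.

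Birc5, the survivin of the complex that travels with the chromosomes, had a level between 3.67 and 4.52 in the pups (median 4.16) and of 0.26, 0.50, 0.42 and 0.55 in the old rats. It was 13.3-fold higher (change 3.74, SE 0.13, adjusted p = 1.93e-13), and its changes in the 3 litters were 3.73, 3.76 and 3.73. Ect2, which acts in cytokinesis, was 11.3-fold higher with litter changes of 3.51, 3.50 and 3.47. Espl1, the separase that frees sister chromatids, was 10.6-fold higher (3.37, 3.40 and 3.43). These are among the genes with the smallest range over litters at 5-fold or more, as were Aspm of the spindle pole (6.48-fold) and Cenpf of the kinetochore (7.02-fold, and 3.60 on the log2 scale by its other probe). The largest changes of the list were those of Kif22, a kinesin that moves chromosome arms (24.3-fold), the kinase Melk (19.9-fold) and the spindle checkpoint kinase Ttk (19.1-fold). Kif22 had a level between 2.60 and 3.57 in pups and of -1.66, -1.86, -1.35 and -1.47 in old rats, which do not overlap. In L1 its change was 3.07, and the difference from the other litters was called (adjusted p = 1.74e-07).

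Genes that peak in mitosis are known to carry in their promoters a cell cycle homology region (CHR), and those of DNA replication an E2F site. The 250 bases before the start of Kif22 and Birc5 are shown for the CHR, in capitals (TTTGAA or, on the other strand, TTCAAA), with the sequences from RefSeq in the build GRCr8. Kif22 is read from the minus strand at chr1:191080879-191081128, where the motif begins 16 bases before the start. Birc5 is read from the plus strand at chr10:103571896-103572145, where it begins 8 bases before the start.
Kif22: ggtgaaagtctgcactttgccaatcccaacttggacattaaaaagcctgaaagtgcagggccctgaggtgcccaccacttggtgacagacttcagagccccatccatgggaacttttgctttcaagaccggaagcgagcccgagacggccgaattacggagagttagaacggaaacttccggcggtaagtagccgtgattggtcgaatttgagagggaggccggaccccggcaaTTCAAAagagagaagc
Birc5: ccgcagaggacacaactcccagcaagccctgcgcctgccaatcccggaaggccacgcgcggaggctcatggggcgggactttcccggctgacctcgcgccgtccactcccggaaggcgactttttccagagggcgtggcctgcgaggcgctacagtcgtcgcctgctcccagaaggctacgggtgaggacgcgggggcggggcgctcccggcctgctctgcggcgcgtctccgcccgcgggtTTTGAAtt

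The CHR letters were found in the window of 17 of 35 mitosis genes (48.6%), 2 of 29 genes of DNA replication (6.9%) and 4732 of 27457 genes in the table of promoters (17.2%). A match is a description of these letters and not of a site in use.

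Genes of DNA replication rose as well. Of 33 genes of licensing, replication forks and nucleotide supply, 27 were called higher (81.8%, against 13.4%) and 0 lower, 17 of them with similar size (against 6.52%), and the median change was 1.79. Of the 28 genes above background in all 4 groups, 22 were called, with a median of 1.64. The mean level was lowest in L2 (3.18 to 3.68) and lay between 3.60 and 4.04 in L3 and L4, and between 1.62 and 1.83 in old rats. Rrm2, a subunit of ribonucleotide reductase, had a level between 2.33 and 3.33 in pups (median 2.74) and of 0.12, -0.85, -0.14 and -0.26 in old rats. It was 8.39-fold higher (change 3.07, SE 0.16, adjusted p = 2.71e-11), and 1.90 on the log2 scale by its other probe. Uhrf1, which brings the methylation of DNA to the new strand, lay between -0.57 and 1.14 in pups and was above background on no array of an old rat. Pups were at least 6.36-fold higher. Pole2, a subunit of DNA polymerase epsilon, was at least 1.98-fold higher in the same way. Uhrf1 and Pole2 had changes of 0.94 and 0.44 with the normexp correction and quantile normalization and were then not called. The helicase subunits Mcm2 to Mcm7 on the array were all called, with changes from 1.28 (Mcm7) to 2.94 (Mcm5). Pcna and Dnmt1 were not called, with changes of 0.88 and 0.89.

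The promoter of Uhrf1 is shown for its E2F letters, in capitals, from the plus strand of chr9:1222936-1223185 in GRCr8 (RefSeq). The letters searched on both strands were TTTCCCGC, TTTGGCGC, TTTCGCGC and TTTGCCGC, and they begin 193 and 99 bases before the start. None of these holds the CHR letters.
Uhrf1: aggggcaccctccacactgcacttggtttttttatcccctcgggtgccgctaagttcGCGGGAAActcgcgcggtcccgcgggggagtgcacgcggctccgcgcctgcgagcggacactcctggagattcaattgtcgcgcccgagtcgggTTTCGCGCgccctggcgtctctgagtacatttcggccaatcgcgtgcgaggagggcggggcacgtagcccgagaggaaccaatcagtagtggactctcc

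They were found in 9 of 29 windows of replication genes (31%), 1 of 35 of mitosis genes (2.86%) and 525 of 27457 in all (1.91%).

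Of 20 inhibitors of the cell cycle and stress genes, 3 were called higher (15%, against 13.4% of all probes) and 2 lower (10%, against 10.9%), shares near those of all probes, with a median change of 0.13. Igfbp3, a binding protein of the insulin-like growth factors, was 7.52-fold higher in pups, and Cdkn1a and Gadd45g, which slow the cycle, were also higher (changes 1.03 and 1.27). Cdkn2a, whose products include the cycle inhibitor p16, had a level between -0.71 and 1.35 in pups and of 1.91, 1.85, 1.82 and 1.98 in old rats. It was 3.54-fold lower (adjusted p = 3.94e-08), with changes of -1.29 in L2, -2.17 in L3 and -2.02 in L4. Gpx6, a glutathione peroxidase known from the olfactory mucosa, was 13.5-fold lower.

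Transcription factors of neural progenitors rose in part. Of 24 genes, 10 were called higher (41.7%, against 13.4%) and 0 lower, 6 of them with similar size (against 6.52%), and the median change was 0.60. Of the 21 above background in all groups, 9 were called. Neurog1, which commits progenitors to the neuronal fate, had a level between 2.71 and 5.07 in pups (median 4.40) and of 1.23, 1.43, 1.26 and 1.46 in old rats. It was 7.79-fold higher (change 2.96, SE 0.27, adjusted p = 2.64e-08). Mycn was 5.33-fold higher and Neurod1, which follows Neurog1, had a change of 1.84. Of the genes of the Notch pathway in the list, the ligand Dll3 (1.81) and Hes6 (1.20) were called. Hes1 had a change of -0.87, Dll1 of -0.71, Hes5 of -0.48 and Notch1 of -0.21, none of them called.

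Immature neurons were marked by 26 tested genes, all above background in the 4 groups. Of these, 14 were called higher (53.8%, against 13.4%) and 1 lower (3.85%, against 10.9%), with a median change of 1.16. Elavl4, an RNA-binding protein of young neurons, was 3.46-fold higher in L2 to L4 (level 7.31 to 8.46 in pups and 5.95, 6.06, 5.93 and 6.24 in old rats). In L1 its change was 0.82. Gap43, the growth cone protein by which immature OSNs are often recognized, had a change of 1.51, Gng8 of 1.67 and Dcx of 1.42. Nnat, neuronatin, was 6.99-fold higher but spread from 6.32 to 9.05 among the pups. The gene that fell was Stmn4, a regulator of microtubules, with a level of 3.80 to 6.08 in pups and of 6.72, 7.01, 6.68 and 7.0 in old rats (4.4-fold lower, adjusted p = 1.02e-06).

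Genes of odour transduction were in large part lower in pups. Of 26 genes of mature OSNs, 15 were called lower (57.7%, against 10.9%) and 0 higher, 11 of them with similar size (against 5.02%), and the median change was -1.38. Among the 24 above background in all groups, 14 were called. Omp had a level between 4.42 and 5.72 in pups (median 5.27) and of 8.22, 8.30, 8.02 and 8.50 in old rats. It was 8.31-fold lower (change -3.05, SE 0.16, adjusted p = 3.28e-11), with changes of -3.27, -2.94 and -2.95 in L2, L3 and L4 and of -3.26 in L1. The pups and the old rats lay more than 2 log2 units apart. Genes called are given next in the order of the pathway, from the receptor inward. Rtp1 and Rtp2, which bring ORs to the membrane, had changes of -1.57 and -1.70, with Rtp2 above background on 1 array of a pup. Gnal was 4.31-fold lower, and Ric8b, the exchange factor of its protein, 5.92-fold lower with litter changes of -2.59, -2.51 and -2.60. Adcy3, the adenylyl cyclase, had a change of -2.87. The channel subunits Cnga2, Cnga4 and Cngb1 had changes of -2.15, -2.93 and -2.77. Pde1c and Pde4a, which degrade cyclic AMP, had changes of -2.12 and -2.39. Stoml3, a protein of OSN cilia, was 9.99-fold lower. The 11 genes not called included the G protein subunit Gnb1 (-0.20), the vesicle protein Syt1 (-0.81), the cadherin Cdhr1 (-0.07) and the carbonic anhydrase Car2 (0.93).

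The promoter of Cnga4 is shown for the letters CCCNNGGG, which the EBF factors of OSNs are known to bind. It is read from the plus strand of chr1:169163956-169164205 in GRCr8 (RefSeq), with the letters in capitals 157 bases before the start.
Cnga4: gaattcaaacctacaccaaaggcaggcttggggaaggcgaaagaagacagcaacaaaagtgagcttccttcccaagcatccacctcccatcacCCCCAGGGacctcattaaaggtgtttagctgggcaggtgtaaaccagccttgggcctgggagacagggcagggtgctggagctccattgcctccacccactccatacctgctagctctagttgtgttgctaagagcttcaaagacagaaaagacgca

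The letters were found in 9 of 20 windows of odour transduction genes (45%), 7 of 23 of muscle genes (30.4%) and 3249 of 27457 in all (11.8%).

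**Figure D2:**
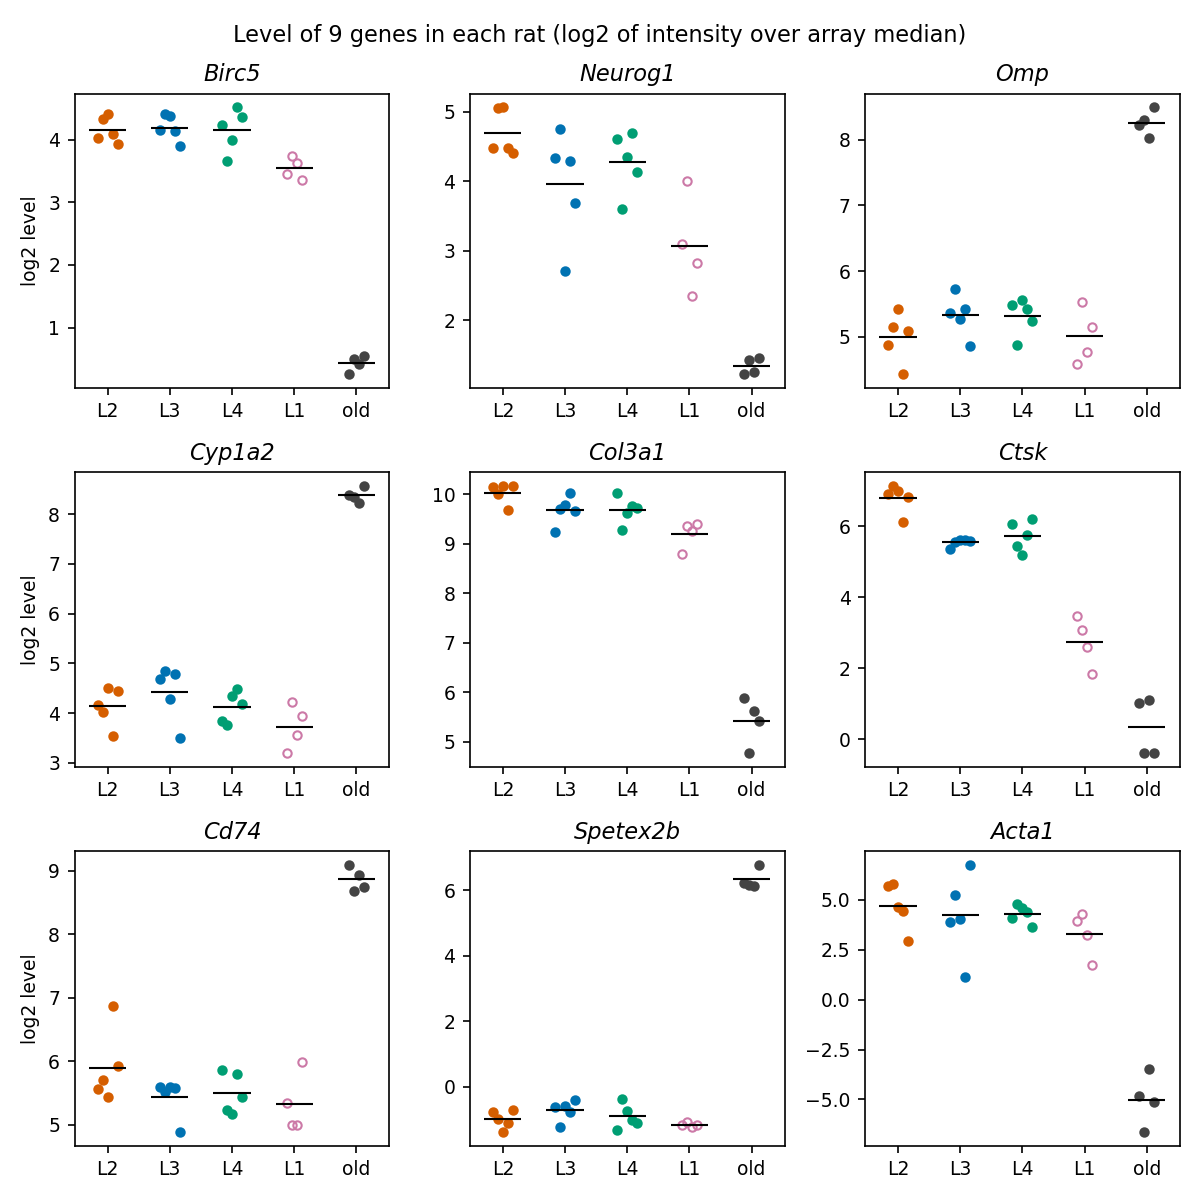
Level (log2 of intensity over the array median) of 9 genes in each pup of L2, L3, L4 and L1 and in each old rat, with a line at each group mean. Birc5 lay between 3.67 and 4.52 in the pups of L2 to L4 and at most at 0.55 in old rats, Omp between 4.42 and 5.72 against at least 8.02, and Ctsk was lower in L1 than in the other litters.

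The OR genes made up the largest group. The array names 1112 OR probes, of which 721 were tested. Of these, 534 were called lower in pups (74.1%, against 10.9% of all probes) and 25 higher (3.47%, against 13.4%). Of them 249 and 16 had a similar size (against 5.02% and 6.52% of all probes). The median change was -1.74, with -1.92 in L2, -1.54 in L3, -1.75 in L4 and -1.87 in L1. Every pup was on the same side of every old rat for 523 OR genes. Over all probes every pup was above every old rat for 22.3% and below for 19.3%. Some OR genes passed the filter through a single side. Above background were 684 OR genes in old rats but 451 in L2, 563 in L3 and 529 in L4. Of the 423 above background in each of the 4 groups, 302 were called lower and 8 higher, with a median of -1.55. The mean level of the OR genes lay between -1.77 and -0.60 in pups and was 0.38, 0.69, 0.50 and 0.68 in old rats. Among the pups, rat 32 of L4 had the lowest mean and rat 27 of L3 the highest, and the litters overlapped. Of the 721, 5 varied by litter (against 1.2% of all probes), Olr382, Olr952, Olr463, Olr93 and Olr95. OR genes are a family of similar sequences, and a probe may bind RNA of a close relative.

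The probes of 6 OR genes called in opposite directions are shown, since these 60 bases are what was measured, with their place in the build rn3 as the array files give it. Olr698 lies at chr3:73670402-73670461, Olr500 at chr3:69500009-69500068, Olr1079 at chr7:12128034-12128093 and Olr1055 at chr7:7860982-7861041, all higher in pups. Olr104 lies at chr1:161296506-161296565 and Olr1610 at chr15:26022050-26022109, both lower in pups.
Olr698: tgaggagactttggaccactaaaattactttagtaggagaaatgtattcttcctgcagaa
Olr500: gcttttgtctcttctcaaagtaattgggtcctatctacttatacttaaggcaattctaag
Olr1079: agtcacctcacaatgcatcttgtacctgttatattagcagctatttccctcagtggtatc
Olr1055: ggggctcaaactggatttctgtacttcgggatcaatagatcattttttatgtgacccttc
Olr104: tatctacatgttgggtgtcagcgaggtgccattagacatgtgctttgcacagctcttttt
Olr1610: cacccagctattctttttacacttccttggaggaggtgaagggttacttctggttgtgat

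Olr1079 had a level between 0.87 and 2.05 in pups (median 1.5) and of -1.73, -1.34, -1.23 and -1.1 in old rats. It was 7.24-fold higher in pups (change 2.86, SE 0.18, adjusted p = 3.39e-10), with litter changes of 2.87, 2.94 and 2.76. Olr1055 was 5.29-fold higher, between 0.43 and 1.73 in pups and at -2.15, -0.63, -1.54 and -0.82 in old rats. For these and for Olr560 (level -3.34 to -1.17 in pups) at least 1 array of an old rat was above background. The other 5 of the 8 OR genes with the largest rise were above background on no array of an old rat. The lower bound of their fold was 2.95 for Olr500, 2.64 for Olr698, 1.97 for Olr156, 1.22 for Olr1733 and 1.02 for Olr1163. Olr698 was above background on 14 of 15 arrays of pups, at levels between -1.87 and -0.13. With the normexp correction and quantile normalization 7 of the 8, all but Olr1079, were no longer called. In L1 the change of Olr1055 was 2.19. In the other direction, Olr1610 was at least 11.1-fold lower in pups, Olr731 at least 9.79-fold and Olr104 at least 4.58-fold, with no array of a pup above background. Olr1610 had levels of 1.09, 1.23, 1.21 and 1.5 in old rats and of at most -2.99 in pups. Olr425 was above background on 1 array of a pup and on all 8 of the old rats. Olr104 and Olr425 had changes of -0.97 and -0.86 with the normexp correction and quantile normalization and were then not called.

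**Figure D3:**
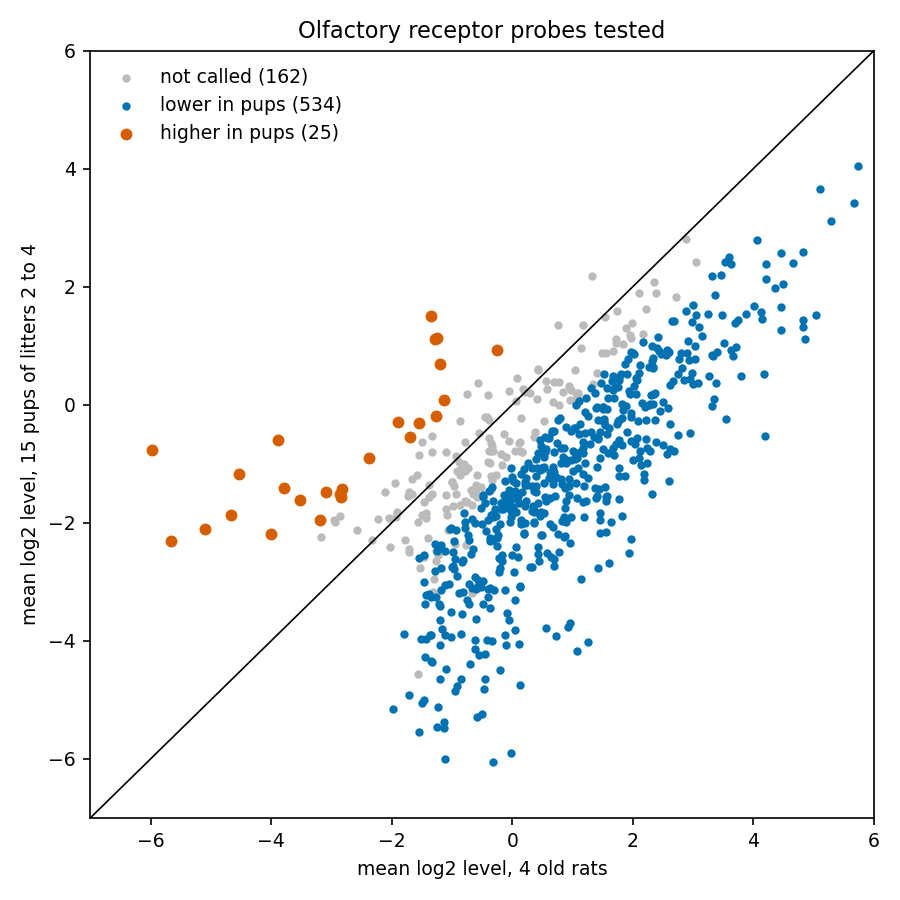
Mean level of each of the 721 tested OR probes in the 15 pups of L2 to L4 against its mean level in the 4 old rats, with the line of equal levels. The 534 probes called lower in pups lie below the line and the 25 called higher lie above it.

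Enzymes and markers of supporting cells were in part lower in pups. Of 37 genes, 20 were called lower (54.1%, against 10.9%) and 0 higher, 14 of them with similar size (against 5.02%), and the median change was -1.18. Of the 36 above background in all groups, 19 were called lower. Cyp1a2, a cytochrome P450, had a level between 3.50 and 4.85 in pups (median 4.29) and of 8.38, 8.34, 8.22 and 8.57 in old rats. It was 17.8-fold lower (change -4.15, SE 0.21, adjusted p = 1.79e-11), with litter changes of -4.24, -3.96 and -4.26. Its other probe gave -4.24. Ugt2a1, the olfactory glucuronosyltransferase, was 8.11-fold lower, with litter changes of -2.99, -2.95 and -3.11. Cyp2b21 was 12.1-fold lower by the probe with the higher mean level and 75.8-fold lower by its other probe. Among the 17 genes not called were Krt8 and Krt18, keratins of the supporting cells (-0.56 and -0.43), and the glutathione transferase Gstp1 (-0.27). Fmo2, a monooxygenase, was called lower (-1.88) and varied by litter.

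Secretions of the glands varied widely between pups. Of 20 genes, 5 were called lower (25%, against 10.9%) and 1 higher (5%, against 13.4%), with a median change of -0.71, and of the 16 above background in all groups 4 were called lower. Azgp1, a zinc-binding glycoprotein, was 5.76-fold lower in pups (adjusted p = 0.000108), as were the secretoglobins Scgb1c1 and Scgb1a1 (-2.12 and -1.55) and the water channel Aqp5 (-1.60). Pip, a secreted protein that binds actin, was the gene called higher (change 7.75, SE 2.28, adjusted p = 0.00582), but it was above background on 1 of the 8 arrays of old rats and its levels in the pups ran from -6.64 to 8.58. In L2 they were -4.23, -3.49 and -6.64 in rats 21, 22 and 23 and 7.37 and 8.58 in rats 24 and 25. Those of Obp1f, an odorant-binding protein that was not called, were -3.92, -4.95 and -0.93 in the first 3 of these pups and 8.30 and 9.66 in the others. Rat 30 was the lowest pup of L3 for both (-1.34 and -0.28). Without old rat 17, 18 or 20 the adjusted p of Pip rose above 0.01 (0.0247, 0.0187 and 0.0183).

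Genes of the fibrillar matrix rose in pups. Of 39 genes for collagens, matrix proteins and their enzymes, 36 were called higher (92.3%, against 13.4%) and 0 lower, 24 of them with similar size (against 6.52%), with a median change of 2.79. All but 1 of the 39 were above background in the 4 groups. The mean level of the list was 5.38 to 6.15 in pups and 3.37, 2.82, 3.14 and 3.02 in old rats. Col3a1, the collagen of loose connective tissue, had a level between 9.23 and 10.17 in pups (median 9.77) and of 5.89, 4.76, 5.61 and 5.42 in old rats. It was 20.8-fold higher (change 4.38, SE 0.17, adjusted p = 6.88e-13), with litter changes of 4.61, 4.26 and 4.27. Thbs2, a thrombospondin of the matrix, was 41.8-fold higher by a probe and 55.4-fold by its other probe. Loxl2, which crosslinks collagen, was 21.9-fold higher, Col1a1 had a change of 3.73 and Fbn1, fibrillin, of 3.74 by a probe and 2.72 by its other probe, whose litter changes were 2.75, 2.70 and 2.73. The 3 not called were P4ha1 (0.01), Thbs1 (0.33) and Loxl1 (0.83). In L1 the median of the list was 2.32.

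Genes of cartilage and of bone rose too. Of 23 genes of cartilage, 15 were called higher (65.2%, against 13.4%) and 0 lower, 9 with similar size (against 6.52%). Of the 20 above background in all groups 12 were called, with a median of 1.43. Over the 23 the median change was 1.61 in L2, 1.63 in L3 and 1.94 in L4. Col2a1, its main collagen, had a level between 6.90 and 8.19 in pups and of 2.23, 2.28, 1.96 and 2.43 in old rats. It was 37.5-fold higher (change 5.23, SE 0.22, adjusted p = 2.14e-12), with litter changes of 5.23, 5.17 and 5.29. Acan, the aggrecan of the cartilage matrix, was 23.7-fold higher (3 of 8 arrays of old rats above background), and Hapln1, which links it to hyaluronan, at least 11.9-fold. Of 20 genes of osteoblasts and mineral, 17 were called higher (85%, against 13.4%) and 0 lower. Of the 20, 4 had a similar size (against 6.52% of all probes) and another 4 (Spp1, Alpl, Dmp1 and Phex) varied by litter (against 1.2%). The median was 3.62 in L2, 2.29 in L3 and 2.59 in L4. The mean level was 4.45 to 4.91 in L2, 3.85 to 4.28 in L3 and 3.74 to 4.67 in L4, so that L2 lay above L3 in every pup and overlapped L4. Phex, a protease of osteoblasts that controls phosphate, lay between -0.84 and -0.32 in L2 and between -2.18 and -1.43 in L3 and L4. Pups were at least 1.74-fold above the old rats, and the litter means spanned 1.22 on the log2 scale (adjusted p of the F test = 0.00413). Phex had a change of 0.44 with the normexp correction and quantile normalization and was then not called. Panx3, a channel protein of bone and cartilage cells, was at least 22.2-fold higher, with a level between 1.64 and 2.80 in the pups. Cthrc1, a secreted protein of bone and matrix cells, was 39.2-fold higher.

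Of 12 genes of osteoclasts, the cells that resorb bone, 6 were called higher (50%, against 13.4%) and 0 lower, with a median change of 1.05. Ctsk, the cathepsin that digests bone collagen, had a level between 6.13 and 7.13 in L2, 5.36 and 5.62 in L3, 5.20 and 6.21 in L4 and of 1.02, -0.40, 1.11 and -0.38 in old rats. It was 51.4-fold higher (change 5.68, SE 0.26, adjusted p = 4.26e-12), and its litter changes of 6.45, 5.20 and 5.39 varied by litter (adjusted p of the F test = 0.00989). In L1 its change was 2.40. Acp5, the acid phosphatase by which osteoclasts are stained, was 9.88-fold higher, and Calcr, the calcitonin receptor, at least 3.98-fold. Calcr had a change of 0.69 with the normexp correction and quantile normalization and was then not called.

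Growth genes of the fetal period rose in pups. Of 18 genes, several of them imprinted, 14 were called higher (77.8%, against 13.4%) and 0 lower, 10 with similar size (against 6.52%). The median change was 2.32 (L2 2.30, L3 2.17, L4 2.35). Of the 15 above background in all groups, 11 were called, with a median of 1.38. The mean level was 5.02 to 5.27 in pups and 2.87, 2.79, 2.97 and 2.94 in old rats, and the SD over the 5 pups was 0.076 in L2, 0.059 in L3 and 0.020 in L4. Igf2, the fetal growth factor, had a change of 3.67, and Igf2bp3, a protein that binds its RNA, was at least 5.13-fold higher, with no array of an old rat above background. Dlk1 was at least 4.45-fold higher. Igf2bp3 and Dlk1 had changes of 0.91 and 0.94 with the normexp correction and quantile normalization and were then not called. Ndn, necdin, was 19.9-fold higher, with a level of 6.70 to 8.62 in pups and of 3.16, 2.58, 3.33 and 3.76 in old rats.

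Genes of skeletal muscle rose in pups, with a wide spread between them. Of 24 contractile genes, 19 were called higher (79.2%, against 13.4%) and 0 lower, and the median change was 4.53, or 2.61 with the genes at background in all old rats set at their lower bound. Of these 24, 12 were above background in all 4 groups, with 7 called higher and a median of 1.87, and 9 of the others were above background on no array of an old rat. Myh3, the embryonic myosin, had a level between 3.06 and 7.62 in pups (median 6.08) and of -0.87, -0.64, -1.44 and -1.52 in old rats, 132-fold higher (change 7.04, SE 0.60, adjusted p = 1.25e-08). Its other probe, above background on no array of an old rat, gave at least 131-fold. Acta1, the actin of skeletal muscle, was at least 94.5-fold higher, the perinatal myosin Myh8 at least 87.7-fold and Tnnt3, a fast troponin, at least 45.2-fold. Ckm, the muscle creatine kinase, lay between 0.83 and 5.88 in pups. In L3 the mean level of the list was lowest in rat 29 (0.95) and highest in rat 30 (4.07), and the other 13 pups lay between these values. None of the 24 genes varied by litter (against 1.2% of all probes).

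Blood vessels were marked by 24 tested genes, of which 13 were called higher (54.2%, against 13.4%) and 0 lower, with a median change of 1.47. Of the 18 above background in all groups 9 were called, with a median of 1.20. Apln, apelin, a signal from growing vessel tips, had a level between 4.60 and 5.42 in pups (median 4.87) and of 1.56, 1.07, 1.29 and 1.60 in old rats. It was 12.2-fold higher (change 3.60, SE 0.15, adjusted p = 2.12e-12). Esm1, also of vessel tips, was at least 2.81-fold higher, and Plvap, of the diaphragms of capillaries, 5.52-fold (3 of 8 arrays of old rats above background). Esm1 and Plvap had changes of 0.62 and 0.93 with the normexp correction and quantile normalization and were then not called. Among the 11 genes not called were Vwf (-0.12), Cldn5 (-0.47) and Emcn (-0.40).

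**Figure D4:**
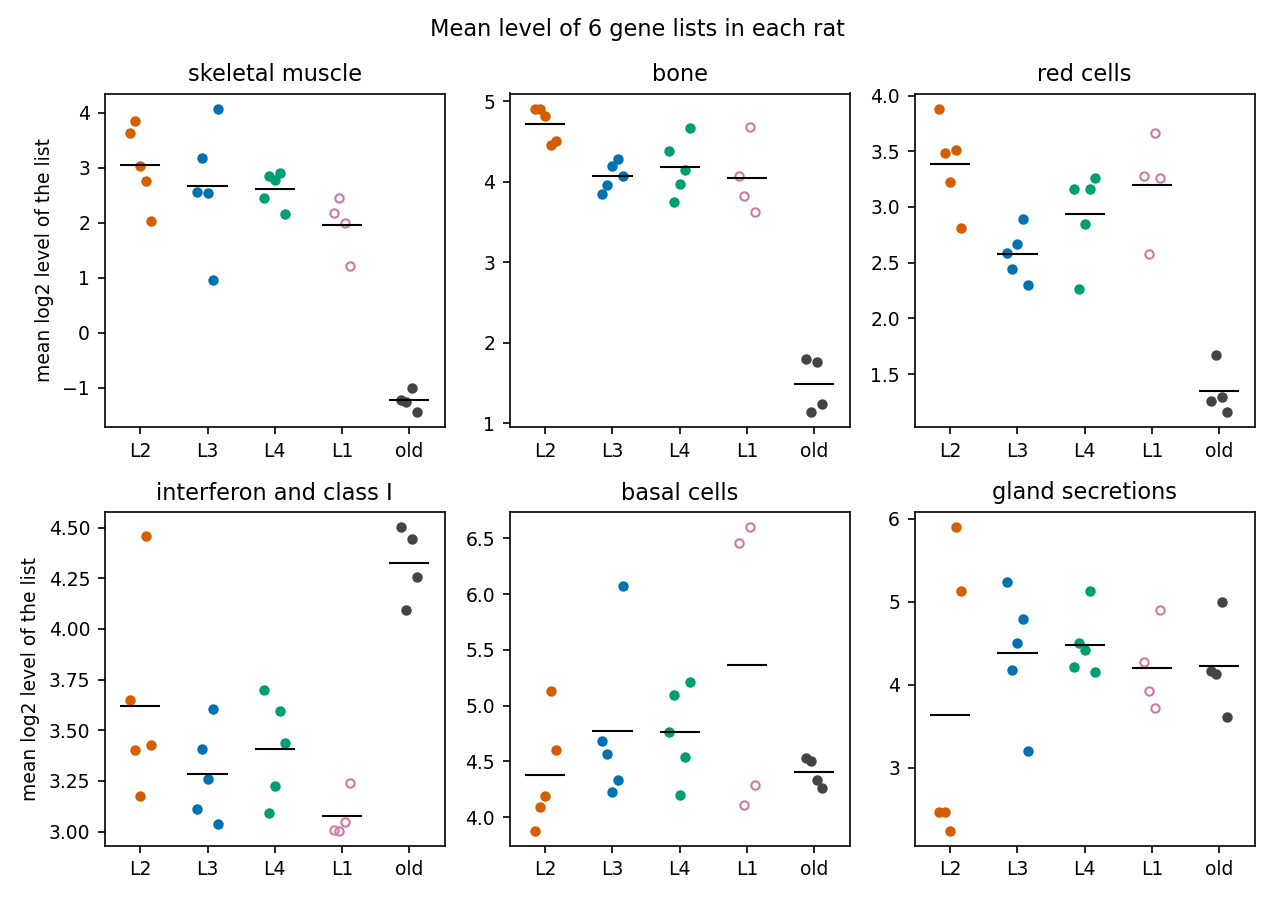
Mean level over the tested genes of 6 lists in each pup of L2, L3, L4 and L1 and in each old rat, with a line at each group mean. For bone every L2 pup lay above every L3 pup, for skeletal muscle the pups of L3 ran from 0.95 to 4.07, and for the gland secretions rats 24 and 25 of L2 (5.90 and 5.12) lay above the other 3 (2.24 to 2.47).

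Among the immune lists, genes of MHC class II and of T and NK cells were mostly called lower in pups, and macrophage genes were called in both directions. Of 8 genes of MHC class II, all above background in the 4 groups, 7 were called lower (87.5%, against 10.9%) with a median change of -2.96. The mean level was 3.88 to 4.88 in L2, 3.33 to 4.04 in L3, 3.53 to 4.14 in L4 and 6.19 to 6.43 in old rats, and rat 24 had the highest value of the pups. Cd74, the chaperone of class II molecules, lay between 4.88 and 6.87 in pups (median 5.57) and at 9.10, 8.69, 8.94 and 8.75 in old rats. It was 9.57-fold lower (change -3.26, SE 0.21, adjusted p = 2.94e-10), and RT1-Da and RT1-Db1, chains of class II molecules, were 10.9-fold and 9.36-fold lower. Ifi30 was the gene not called (0.80). Of 33 genes of the interferon response and class I presentation, 15 were called lower (45.5%, against 10.9%) and 2 higher (6.06%, against 13.4%), with a median of -0.83. Tapbp, Tap1, Tap2, Psmb8 and Psmb9, which prepare and load peptides, had changes between -1.86 and -1.11, all called. Mx2, an antiviral GTPase, was 4.39-fold lower. Ifit3 had levels of at most 1.0 in pups and of 0.55, -1.71, -0.29 and -2.47 in old rats, which overlap through rats 21 and 24, and 2 arrays of pups were above background (change -3.89, SE 1.02, adjusted p = 0.00266). Without old rat 17 or 19 its adjusted p was 0.0166 and 0.012. Mx1, of the same family as Mx2, was called lower too, but not without old rat 17, 19 or 20. The genes called higher were Ifit1 (1.30) and Rsad2 (1.36), and the latter varied by litter.

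Of 19 genes of T and NK cells, 12 were called lower (63.2%, against 10.9%) and 0 higher, with a median change of -1.57 (-1.17 for the 11 above background in all groups), and 6 were above background in old rats alone. Gzmb, the granzyme B of cytotoxic cells, was above background on no array of a pup and had levels of 0.97, 1.07, 0.98 and 1.63 in old rats, at least 10.1-fold lower in pups. Trbc1, the constant part of the T cell receptor beta chain, was 7.38-fold lower (5 of 15 arrays of pups above background), and Cd3e at least 1.45-fold. Trbc1 and Cd3e had changes of -0.99 and -0.38 with the normexp correction and quantile normalization and were then not called. Of the 5 tested genes of B and plasma cells, Cd38 was called lower (3.89-fold), with a level of -3.20 to -2.42 in L2 and of -2.38 to -1.08 in L3 and L4, and it varied by litter (adjusted p of the F test = 0.000912). Its L2 levels lay under the lowest signal well above background on the L2 arrays (-2.29 to -1.65). With the normexp correction and quantile normalization Cd38 had a change of -0.57 and was then not called. Among 23 genes of macrophages, 8 were called lower (34.8%, against 10.9%) and 4 higher (17.4%, against 13.4%). Fcgr2b and Fcgr3a, receptors for antibodies, were 6.81-fold and 5.6-fold lower. Mrc1, the mannose receptor, was 6.08-fold higher, with a level of 0.81 to 2.01 in pups and of -1.07, -1.12, -0.94 and -1.57 in old rats, and Cd163 and F13a1, also of resident macrophages, were called higher. Of 19 genes of complement, 5 were called lower (26.3%, against 10.9%), among them C4a (3.39-fold) and Cfd (2.43-fold), and 2 higher (C6 and Masp1, 10.5%, against 13.4%).

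Granule genes of neutrophils and their precursors were called in part. Of 20 genes, 8 were called higher (40%, against 13.4%) and 1 lower (5%, against 10.9%), with a median of 1.49 in L2, 0.53 in L3 and 1.32 in L4. But 13 were above background in all groups, of which 3 were called higher and 1 lower, with a median of 0.39. RatNP-3b, a defensin, lay between 2.55 and 6.76 in pups and at -0.17, -0.35, 0.64 and -1.09 in old rats, 29.6-fold higher (adjusted p = 1.64e-07). Camp, the precursor of an antimicrobial peptide, was called higher, with a level between 0.15 and 3.00 in pups and 1 of the 8 arrays of old rats above background. Ngp was at least 3.67-fold higher, but had a change of 0.78 with the normexp correction and quantile normalization and was then not called. Of 18 genes of red cells and their precursors, 11 were called higher (61.1%, against 13.4%) and 1 lower (5.56%, against 10.9%), with a median change of 1.88. Of the 14 above background in all groups, 7 were called higher, with a median of 1.08. The list's mean level was 2.81 to 3.88 in L2, 2.30 to 2.90 in L3, 2.27 to 3.26 in L4 and 1.16 to 1.67 in old rats. Ahsp, the chaperone of alpha globin, was 15.8-fold higher, with a level of 6.19 to 8.20 in pups and of 3.06, 3.67, 3.23 and 2.80 in old rats. Epb42 of the red cell membrane was called higher, with a level between 0.51 and 2.87 in pups and 1 of the 8 arrays of old rats above background. Hemgn, a nuclear protein of erythroid precursors, was at least 10.1-fold higher and varied by litter, as did Alas2, Slc4a1 and Ermap. Its level was 1.57 to 2.77 in L2 and 0.24 to 1.39 in L3 and L4. Hbb, the beta globin of adult red cells, was not called (0.19). Rhag, known as a protein of the red cell membrane and an ammonia channel, went the other way. It lay between -2.47 and 0.26 in pups and at 3.41, 3.80, 3.33 and 3.02 in old rats, 23.4-fold lower (adjusted p = 7.78e-10), and its other probe gave -3.38 on the log2 scale.

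Few genes of other cell types of the mucosa were called. Of 19 genes of motile cilia 1 was called higher and 1 lower (5.26% each, against 13.4% and 10.9%), with a median change of -0.15. The former, Cetn2 of the centrioles, was 2.8-fold higher in L2 to L4 but lower in L1 (change -1.01, adjusted p = 0.0014). Its level was 2.14 to 3.05 in the 15 pups, -0.77 to 0.71 in L1 and 0.91 to 1.43 in old rats. The latter, Spag6, was above background on 1 array of a pup, and its adjusted p of 0.00358 rose above 0.01 without old rat 17, 19 or 20 (0.0117, 0.0127 and 0.011). Of 11 genes of basal cells, 2 were called higher (18.2%, against 13.4%). Krt15 had a change of 1.28, and Lgals7, a galectin of stratified epithelium, had one of 4.34 with a level of 9.15 in rat 30 and 7.29 in rat 32, and of at most 3.72 in every other pup. Without old rat 20 the adjusted p of Lgals7 was 0.0124. The other keratins of basal cells, Krt5, Krt14 and Krt17, had changes of -0.50, -0.95 and -0.40 and were not called. Of 19 genes of glia and myelin, 3 were called lower (15.8%, against 10.9%) and 2 higher (10.5%, against 13.4%). Mag and Mal, proteins of mature myelin, were 12.9-fold and 7.34-fold lower, and Prx, of myelinating Schwann cells, 2.45-fold higher. Mbp, a structural protein of myelin, was not called (-0.22).

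Of 33 axon guidance genes, 10 were called higher (30.3%, against 13.4%) and 4 lower (12.1%, against 10.9%), with a median of 0.02. Of the 28 above background in all groups, 6 were called higher and 4 lower, with a median of -0.15. Unc5c, a receptor for netrin and above background on 3 of 8 arrays of old rats, was 11.2-fold higher, with a level of 0.89 to 2.03 in pups and of -1.87, -3.05, -2.50 and -1.15 in old rats. Slit3, a repellent, was 5.97-fold higher, and Plxnc1, a receptor for semaphorins, 4.18-fold. Cntn4, Efna3, Plxna3 and Epha5 were lower (changes -1.78, -1.72, -1.52 and -1.29). Of 17 genes of the circadian clock, 6 were called lower (35.3%, against 10.9%) and 0 higher. Bhlhe41, Nr1d1 and Dbp, transcription factors of the clock and its output, were 3-fold, 2.81-fold and 2.51-fold lower in pups, while Per1, Per3, Cry1 and Arntl were not called (-0.13, -0.22, 0.16 and -0.24). The time of day at which the rats were killed is not given in the sources used here. Among adult rats the study reported Dbp and Per3 as higher in those from Charles River than in those from Elevage Janvier. Of the genes fixed as markers of the sex chromosomes, Eif2s3x and Kdm6a, both of the X chromosome, were tested and not called. Kdm6a lay between 2.69 and 4.19 in pups and between 2.29 and 2.76 in old rats (change 0.75, SE 0.15, adjusted p = 0.000366).

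Several of the largest changes belonged to no list. Spetex2b, of a family known from the testis, had a level between -1.39 and -0.36 in pups and of 6.24, 6.17, 6.15 and 6.78 in old rats. It was 148-fold lower (change -7.21, SE 0.17, adjusted p = 4.2e-15), with litter changes of -7.33, -7.05 and -7.24. Its relative Spetex2d was 106-fold lower, with litter changes within 0.07 of each other. These genes are near copies, so their probes may share RNA. Spin2a, a serine protease inhibitor, was 180-fold lower, and Serpina3n of the same family 33-fold. Atp6v1g3, a subunit of the proton pump, had a level of at most 1.52 in pups and of 7.08, 7.07, 7.11 and 7.45 in old rats, 81-fold lower. Cox8b, a subunit of cytochrome oxidase, was 28-fold lower, Rgr, an opsin-like receptor, 24.5-fold, and Baat, which conjugates bile acids, 23.2-fold. Rgr varied by litter, from -5.59 in L2 to -4.12 in L4 on the log2 scale. Above background on no array of a pup were Cabp5, a calcium-binding protein (at least 10.6-fold lower), Car7, a carbonic anhydrase (at least 9.03-fold), the kinase Srms (at least 7.12-fold) and the receptor Mrgprg (at least 3.77-fold). Srms and Mrgprg had changes of -0.97 and -0.85 with the normexp correction and quantile normalization and were then not called.

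In the other direction Alox15, a lipoxygenase, was 53.7-fold higher in pups and varied by litter, with changes of 6.76 in L2, 5.33 in L3 and 5.15 in L4. Aspn, asporin of the matrix, was 31.7-fold higher. C1qtnf6, a secreted protein of the C1q family, was 23.8-fold higher (2.49 on the log2 scale by its other probe). Myl11, a myosin light chain of fast muscle that the muscle list holds under its older symbol Mylpf, was 26.6-fold higher. Capn6, a calpain known from embryonic muscle, was at least 20.5-fold higher, with a level between 1.61 and 2.65 in pups. Dlc1 had a level between -0.17 and 0.81 in pups, and 1 of the 8 arrays of old rats was above background. A pair of genes had a wide spread over the pups. Stfa3, a stefin that inhibits cathepsins, was at least 66.8-fold higher in the mean and had levels of 9.59 in rat 30 and 6.41 in rat 32, against 2.03 to 5.02 in the other pups. Amelx, the enamel protein of growing teeth, was at least 60.9-fold higher in the mean, and its levels in pups ran from -1.49 in rat 33 to 8.83 in rat 23. Among the genes lower by a similar size were Thbs4, a thrombospondin (14.4-fold, litter changes -3.88, -3.80 and -3.87), Slc39a4, a zinc transporter (7.93-fold), Scnn1b, a subunit of the epithelial sodium channel (5.97-fold), Cabp7, a calcium-binding protein (5.86-fold), and Ttll6, which modifies tubulin of cilia (5.48-fold).

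Among the 337 probes that varied by litter L2 most often stood at an end. For 331 of them L2 had the highest mean (194 probes) or the lowest (137), and for 283 the means of L3 and L4 lay within 0.5 of each other. A symbol was given for 148 of the probes, and 120 of the 337 were also called higher in pups and 59 lower. The range over the 3 litters had a median of 0.28 over all tested probes and of 0.43 over those called between ages.

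The 12 genes with the smallest p of the F test, chosen on these same pups, are given as examples. Dcp1a, which removes the cap of RNAs, had levels of 1.65, 1.86, 2.10, 1.88 and 1.81 in L2, of 0.83, 1.03, 1.02, 0.96 and 0.60 in L3, of 0.65, 0.33, 0.57, 0.47 and 0.49 in L4 and of -0.36, -0.31, -0.36 and -0.20 in old rats. All L2 pups were above all others, and every litter was above the old rats (adjusted p of the F test = 1.44e-06). Abhd1, a hydrolase, was lowest in L2 (0.18 to 0.75) and lay between 1.47 and 1.93 in L3 and L4 and between 2.63 and 2.92 in old rats. Decr2, an enzyme of fatty acid oxidation in peroxisomes, had the same order, with changes of -2.01, -0.86 and -0.80. Khdrbs2, a protein that binds RNA, was higher than in old rats by 2.13 in L3 and 1.64 in L4 and by 0.18 in L2. Stat3, the signal transducer of many cytokines, was higher in L2 (4.04 to 4.29) than in L3 and L4 (2.77 to 3.40), but lower than in old rats in L1 (1.12 to 1.67), and its other probe had a change of -0.32. Zkscan3, a zinc finger repressor, Ppp1r2, an inhibitor of protein phosphatase, Rasgrp4, an activator of Ras, and Stxbp5l, a relative of the tomosyns, were also highest in L2, and the protocadherin Pcdh9 was lowest there. In several of the 12, among them Khdrbs2, Rsrp1 and Srsf5, L3 lay at the end opposite to L2. Rsrp1 was lowest in L3 (3.15 to 4.2, against 5.08 to 6.21 in L2 and L4), and Srsf5, a splicing factor, was highest in L3 (6.08 to 6.43) and lowest in L2 (4.91 to 5.33), without a call between pups and old rats. For Ppp1r2, Pcdh9, Srsf5, Stxbp5l and Rsrp1 other probes differed in size or sign: Ppp1r2 had -0.50 against 0.57, Pcdh9 between -1.40 and -0.19 against 0.65, and Srsf5 between -1.49 and 0.46 against -0.11. With the normexp correction and quantile normalization Dcp1a, Decr2 and Khdrbs2 had changes of 0.77, -0.94 and 0.71 and were then not called. The litter ranges of Dcp1a, Abhd1, Zkscan3, Decr2, Pcdh9, Rasgrp4 and Stat3 were then 0.53 to 0.97, under 2-fold.

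Litter and slide were linked. On the first of the 2 scan days, which held 11 pups, each slide held pups of a single litter, so that litter and slide cannot be told apart there, and the second held 4 pups on slides with 2 litters each. With the slide as a random block, 164 probes varied by litter, of which 148 were among the 337. Within the first day 494 probes varied, 242 of them among the 337, and within the second 436, of which 62 were. Without rat 24 of L2 the count was 512, and without rat 22 it was 213. The pups of the second day were then set against the litter means of the first over the probes that varied on the first. The L2 pup, rat 24, was nearest to the mean of L2 for 44.3% of 494 probes, and the L4 pup, rat 34, nearest to L4 for 46%. The L3 pups, rats 26 and 28, were nearest to L3 for 47.5% and 51.8%. The L2 pup was nearest to L3 for 137 probes and to L4 for 138, while the L3 pups were nearest to L2 for 46 and 54. The L3 pups were nearest to L4 for 213 and 184 probes, and the L4 pup was nearest to L3 for 203 and to L2 for 64.

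**Figure D5:**
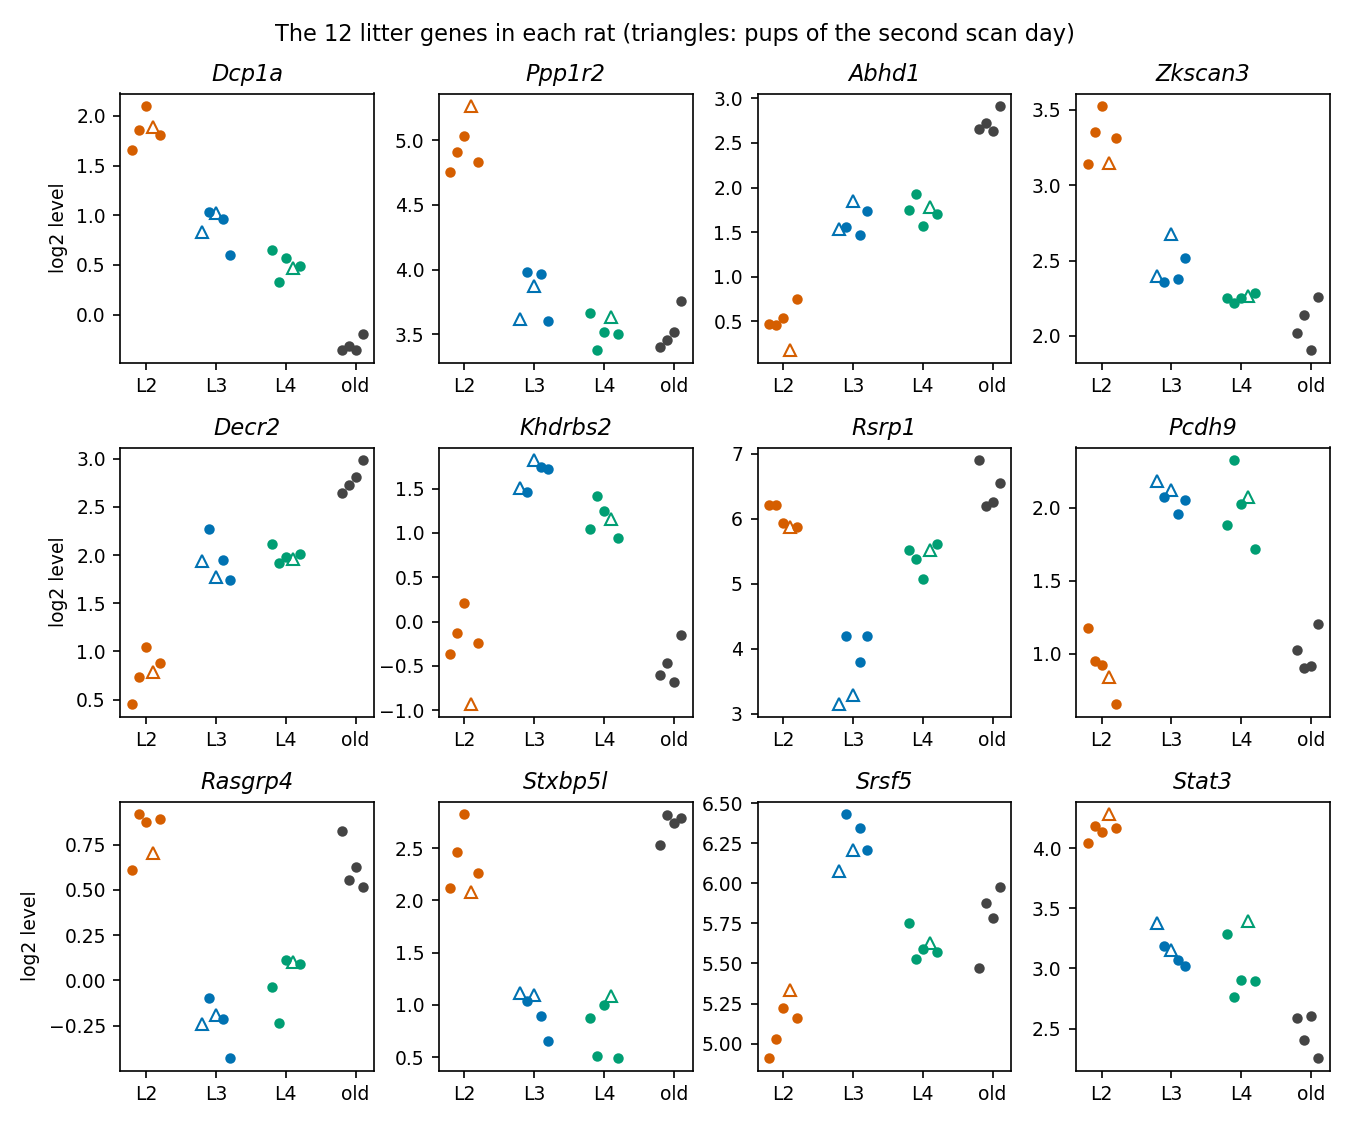
Level of the 12 genes with the smallest p of the F test between litters in each pup of L2, L3 and L4 and in each old rat, with pups of the second scan day as triangles. In each of the 12 panels all 5 pups of L2 stand on 1 side of all pups of L3 and L4. For Dcp1a the L2 pups lie between 1.65 and 2.10 and all other pups at most at 1.03. The genes were chosen by this test on the same pups, of both scan days, so that a clear separation follows from the choice.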

How the data were processed

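RNA of the olfactory epithelium was labelled with Cy3 after linear amplification and hybridised to Agilent whole rat genome arrays. The deposited scanner files hold intensities that the authors extracted with Agilent Feature Extraction (releases 9.5.1.1 and 9.5.3.1 per the file headers, build rn3), with the background subtracted and no normalization between arrays. The deposited value table holds a ratio, for which the authors divided each array and then each probe by its median, and it was used as an alternative.

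Of 45018 spots per array, 43379 were no control spots and gave 41012 probes. Spots marked as non-uniform or population outliers were left out, 4189 over the 35 arrays of the series, which left 890 values missing on 494 probes, and spots of a probe were averaged. Intensities were divided by the array median, floored at 0.01 and taken to log2. The A and B arrays of an old rat were averaged. A probe was tested if it was above background on at least 3 of the 5 arrays of a litter or 6 of the 8 of the old rats, as in the methods of the study, which left 28007. Groups L2, L3, L4 and old were fitted with limma 3.58.1 (R 4.3.3), with all 3 litters weighted equally and Benjamini-Hochberg adjustment over all tested probes. Calls needed an adjusted p under 0.01 and 2-fold. Nothing in the labels marks pups as independent beyond being separate animals of a litter, and litter means were tried as replicates. Probe symbols are those of the array design, updated through RefSeq accessions for 10811 probes. For a gene with several probes in a list, that with the highest mean level was used.

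Where a group was above background on no array, the fold is given as a lower bound. The bound sets the mean of the measured group against the lowest signal well above background on each array of the other, or the probe's own signal where higher. It holds for the main processing, and several genes fell below it with the normexp correction and quantile normalization. Scripts were tested on simulated data. The genes named are the 3 of each list with the largest change, the 10 symbols in each direction with the largest change, every pup beyond every old rat and a signal above background in L2, L3, L4 and old rats, the 6 in each direction with the largest bound, the 8 in each direction with the smallest range over litters at 5-fold or more, the 12 that vary by litter with the smallest p, the 8 OR genes with the largest rise and the 4 with the largest fall, and Omp, Gnal, Gapdh, Hprt1 and Suclg1, with 1 probe per symbol and no predicted names. Other members of the lists are named as examples chosen after their values were seen. The litters, the gene lists and these rules were chosen with earlier results of these data known. L1 was compared with the other litters in a fit of all pups and old rats. Values of a few list members are not reported here.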

Additional observations from a re-analysis of the deposited data

Results flagged for a closer look

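In 661 sets of 4 or 5 rats of a group, a rat far from the others of its group was looked for by Dixon's criterion. It marks about 1 set in 20 by chance, and 27 were found, a count under that share. The sets overlap, since RT1-Da and Cd74 belong to the list of MHC class II and Lgals7 to that of basal cells. Several marks of a rat are therefore not separate finds. Rat 30 of L3 stood apart most often, with a mean level of MHC class II genes of 3.33 (median of the others 3.87) and of basal cell genes of 6.07 (4.57), and levels of 2.46 for RT1-Da, 4.88 for Cd74, 9.15 for Lgals7, 6.81 for Gpx6 and 9.59 for Stfa3. Rat 24 of L2 stood apart in the mean of the cell cycle inhibitors (4.83), in RT1-Da (4.48) and in Atp6v1g3 (1.14). Rat 21 of L2 stood apart in the mean of the sex chromosome genes (4.69), in Eif2s3x (5.18), Nnat (7.76), Ndn (7.58) and Igf2bp3 (-0.28). Single values stood apart for Prx in rat 25 of L2 (2.37), Eif2s3x in rat 29 of L3 (5.48), Hemgn in rat 32 of L4 (0.24) and Olr1055 in rat 34 of L4 (0.69). Among the old rats these were Mx1 (-2.60) and Thbs2 (0.31) in rat 18, Suclg1 (8.60) and Myl11 (2.05) in rat 17, and Gzmb (1.63), Spetex2b (6.78), Atp6v1g3 (7.45) and Olr425 (0.34) in rat 20.

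The change against the old rats differed between L2, L3 and L4 for 18 of the genes named, by the F test between litters. Only Alox15, Hemgn, Rgr, Cd38, Ctsk and Phex of these were named by another rule. The others were named for the smallest p of this same test, so that their place here follows from the choice. The 18 can therefore not be set against the share of all tested probes that varied by litter (337 of 28007, 1.2%). The range of the 3 litter changes on the log2 scale was 2.29 for Rsrp1, 1.95 for Khdrbs2, 1.62 for Alox15, 1.56 for Stxbp5l, 1.53 for Hemgn, 1.47 for Rgr, 1.42 for Ppp1r2 and 1.36 for Dcp1a. It was 1.27 for Cd38, 1.26 for Abhd1, 1.25 for Ctsk, 1.22 for Phex and for Decr2, 1.17 for Pcdh9, 1.12 for Srsf5, 1.11 for Stat3, 1.04 for Zkscan3 and 1.03 for Rasgrp4. Litter cannot be told apart from slide among the pups of the first scan day.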

How the results depend on the processing

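The counts depended most on how low signals were treated. With normexp background correction and quantile normalization, 1525 probes were higher and 1239 lower in pups, 192 and 101 at 5-fold or more. L2 then had 1670 higher and 1382 lower, L3 1498 and 1233, and L4 1489 and 1261. With similar size there were 865 higher and 892 lower, 60 probes varied by litter, and L1 had 44 higher and 235 lower than the other litters. With probes above background in each of the 4 groups, 447 were higher and 241 lower at 5-fold, and 77 were higher in L1 than in the other litters. Without a filter 913 were lower at 5-fold and 515 higher in L1. With scaling to the 75th percentile 503 were higher in L1, and pups had 3220 higher and 3574 lower. With slide as a random block 164 probes varied by litter and 81 were higher in L1. With litter means as replicates 3636 were higher and 3062 lower, and by the methods' t-test 3421 and 3013.

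With L1 in place of L2 to L4, 2828 were higher and 3072 lower, and Cetn2 was reversed (-1.01 against 1.49). Leaving out each rat in turn gave 3576 to 3805 higher and 2895 to 3154 lower, 986 to 1104 and 510 to 553 at 5-fold, 1714 to 1884 and 1261 to 1429 with similar size, 213 (without rat 22) to 512 (without rat 24) that varied by litter, and 137 (without rat 11 of L1; 149 without rat 9) to 312 higher in L1. The causes were not tested.

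Of 2586 comparisons of a named gene with another setting, 2510 kept their side of the threshold, as did 2923 of 2945 with a rat left out. Direction was compared only for genes called in the main fit. With normexp 37 named genes were no longer called, several of them given above with a lower bound. In that setting 7 of the 12 litter genes no longer passed as varying by litter. Pip was not called with the 75th percentile, a floor of 0.1, no filter, the A arrays alone, L1 in place of the other litters, or slide or scan day as a block. Olr560 and Olr1163 were not called with a floor of 0.1, the 75th percentile or the t-test. By the t-test Olr156, Olr1733, Camp, Esm1 and Mx1 were not called either. Within the second scan day, where L2 and L4 have 1 pup each that is assumed to vary like the other groups, 6 of the 12 litter genes were no longer past the threshold. No paired analysis was possible because the rats carry no replicate number that is shared between the groups. Signal over background limits genes with low levels, for which only bounds are given.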
